A study of Mus musculus with 8 samples.

Results

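The genes described here are 10 of the protein-coding genes of mouse mitochondrial DNA, measured in RNA from colonic crypts at 4 times of day: mt-Nd1, mt-Nd2, mt-Nd4, mt-Nd5, mt-Nd6, mt-Cytb, mt-Co1, mt-Co2, mt-Co3 and mt-Atp6. They were taken by symbol from a table of 14247 genes, and all 10 passed the filter of a mean of at least 10 normalised counts, which 13503 genes passed in all. The table held 12 genes with the mt- prefix. The other two, mt-Nd3 and mt-Nd4l, are given for comparison, and the remaining mitochondrial mRNA, the mitochondrial rRNAs and the mitochondrial tRNAs were not analysed here. The genes were chosen by measured values, namely their share of the reads in each library, their moving together, and the gap between replicates at ZT0 and ZT18, so those values are given as a description without a test.

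The crypts came from wild-type (WT) mice on a C57BL/6 background, adult by the age range in the methods. The mice were kept in equal periods of light and dark without treatment. Zeitgeber time (ZT) is the only difference between groups that the labels give, and other differences cannot be checked from them. Lights went on at ZT0 and off at ZT12, so mice rest at ZT0 and ZT6 and are active at ZT12 and ZT18. The 2 libraries of a time point are called replicate 1 and replicate 2, as labelled. The paper's figure legend for this time course states more mice per group than the 2 libraries held here. Nothing in the labels ties a library to 1 animal, so a p-value here measures only the spread between libraries. Crypts were scraped from the colon after EDTA and strained, and the labels name them colonic epithelial cells.

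Recovered reads per library ranged from 14722342 to 25159440, with a median of 17507372. The 10 epithelial markers, such as Epcam and Krt8, were present in every library. Their summed levels ran from 301019 normalised counts in ZT12 replicate 1 to 411111 in ZT18 replicate 1. Markers of other cells were uneven. The 6 smooth muscle markers summed to 5106 normalised counts in ZT12 replicate 1 and 1107 in ZT12 replicate 2, against 448 and 761 at ZT0, 586 and 718 at ZT6, and 580 and 1025 at ZT18, with Acta2, Des, Actg2 and Cnn1 at 0 in some libraries. The fibroblast markers summed to 2418 in ZT12 replicate 1 and to between 3.22 and 665 elsewhere, with 5 of the 6 at 0 in at least 1 library. The 7 B and plasma cell markers summed to 2871 in ZT0 replicate 2 and to between 90.3 and 839.9 elsewhere.

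Mitochondrial DNA is a small circle present in many copies per cell. Its 2 strands are transcribed as long precursors, which are cut at the tRNAs that lie between the genes and yield the mRNAs and rRNAs. The mRNAs all encode core subunits of oxidative phosphorylation. The Nd genes belong to complex I, which takes electrons from NADH. Cytochrome b, from mt-Cytb, belongs to complex III, which passes electrons to cytochrome c. The Co genes encode the catalytic core of complex IV, which reduces oxygen, and mt-Atp6 encodes a subunit of the proton channel of complex V, the ATP synthase. Apart from a few small subunits also made from mitochondrial DNA, the rest of these complexes, and all of complex II, is encoded in the nucleus. In the colon, oxidation of bacterial butyrate in mitochondria is a main energy source of the epithelium. The 10 genes lie on the mitochondrial chromosome between bases 2751 and 15288 of GRCm38, each as a single exon, and mt-Nd6 alone is annotated on the minus strand.

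Among the 10 genes, those matched almost throughout by an identical nuclear copy also had the lowest levels per kb. Copies of mitochondrial DNA have been inserted into the nuclear genome, and some carry gene annotations of their own. In the GENCODE M21 annotation of GRCm38, 7 such copies with at most 1 mismatch to a mitochondrial gene lie in order within 4663 bases of chromosome 1, from base 24611535 to base 24616197 on the minus strand, all annotated as unprocessed pseudogenes. Gm28437, at 24613189 to 24613971, matched mt-Co3 without a mismatch over 783 of its 784 bases. Gm28661 matched mt-Co2 without a mismatch over 681 of 684 bases, and Gm10925 matched mt-Atp6 over 678 of 681 bases. The first 120 bases of mt-Co3 (chrM:8607-8726, plus strand) and of its copy (chr1:24613852-24613971, minus strand) are shown to make that identity visible, and capitals would mark a base that differs.

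mt-Co3: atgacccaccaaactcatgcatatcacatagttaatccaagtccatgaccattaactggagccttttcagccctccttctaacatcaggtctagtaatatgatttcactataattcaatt
Gm28437: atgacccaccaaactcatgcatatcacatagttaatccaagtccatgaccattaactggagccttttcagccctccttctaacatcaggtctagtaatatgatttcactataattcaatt

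A read from this stretch has an equal match in both places. The closest copies of mt-Nd6 and mt-Cytb were less similar: Gm11408 on chromosome 4 matched mt-Nd6 over all 519 bases at 93.6% identity, with 33 mismatches, and Gm11410 matched mt-Cytb at 92.9% with 81. The start of mt-Nd6 (chrM:13951-14070, minus strand) and of Gm11408 (chr4:80003795-80003914, minus strand) shows how a read can tell them apart, with the 4 bases of the copy that differ in capitals.

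mt-Nd6: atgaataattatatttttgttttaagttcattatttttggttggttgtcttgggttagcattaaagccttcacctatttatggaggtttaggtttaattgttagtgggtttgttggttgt
Gm11408: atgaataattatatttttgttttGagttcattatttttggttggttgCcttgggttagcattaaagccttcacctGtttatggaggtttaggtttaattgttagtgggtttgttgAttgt

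mt-Nd4 was matched in part. Gm28439 on chromosome 1 was identical to its first 876 of 1378 bases and ended there, so bases 817 to 936 of mt-Nd4 (chrM:10983-11102, plus strand) run from shared sequence into sequence without that copy, the latter in capitals.

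mt-Nd4: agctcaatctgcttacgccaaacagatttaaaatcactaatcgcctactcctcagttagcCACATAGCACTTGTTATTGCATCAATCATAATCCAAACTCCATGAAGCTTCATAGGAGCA

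mt-Co1 had a close copy, Gm29216, over 483 bases with 1 mismatch, besides a full-length copy on chromosome 2, Gm13340, at 97.6% identity. The nearest annotated copies of mt-Nd2 and mt-Nd5 reached 96.7% and 95.2% identity over parts of the genes. No annotated transcript matched mt-Nd1 over 100 or more bases, and its first 120 bases (chrM:2751-2870, plus strand) are shown as the case without a copy.

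mt-Nd1: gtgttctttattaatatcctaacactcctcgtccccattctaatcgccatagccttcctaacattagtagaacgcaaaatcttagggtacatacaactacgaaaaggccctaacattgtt

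The reads of the study were 150 bases long, so every stretch of 150 bases of each gene was looked up among all other annotated transcripts. An identical stretch was found for 634 of 635 windows of mt-Co3, 532 of 535 of mt-Co2, 529 of 532 of mt-Atp6, 727 of 1229 of mt-Nd4 and 330 of 1396 of mt-Co1. None was found for mt-Nd1, mt-Nd2, mt-Nd5, mt-Nd6 or mt-Cytb. The search covered annotated transcripts only, paired reads span more than 1 window, and the levels of the copies themselves were not analysed here.

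The genes with nearly all of their windows shared had the lowest levels per kb, while mt-Nd4 and mt-Co1, shared in part, stood among the high ones. Per kb of gene, the mean over the 8 libraries was 1053429 normalised counts for mt-Co1, 331599 for mt-Cytb, 249281 for mt-Nd1, 129361 for mt-Nd4, 104257 for mt-Nd2, 102734 for mt-Nd5 and 61518 for mt-Nd6. It was 267 for mt-Co2, 216 for mt-Co3 and 195 for mt-Atp6. Per kb, the lowest of the first 7 was thus 230-fold above the highest of the other three, while the 7 spanned 17.1-fold among themselves. The split depended on the measure. Per 1000 windows without an identical copy, mt-Co3, mt-Co2 and mt-Atp6 stood at 169525, 60917 and 44363 normalised counts, beside 86292 for mt-Nd6. Those 3 values rest on only 1, 3 and 3 such windows. Ranked by mean normalised count without regard to length, mt-Co1, mt-Cytb and mt-Nd1 were the 3 highest genes of the table, mt-Nd6 ranked 30 and mt-Co2, mt-Co3 and mt-Atp6 ranked 8778, 8950 and 9492. mt-Nd3 and mt-Nd4l, with 97.0% and 98.0% of their windows shared, also stood low, at 1430 and 71.0 normalised counts per kb. This grouping into 7 abundant and 3 low genes was made after the values were seen and is not tested. How the authors counted reads that match more than 1 place is not stated, so the levels of mt-Co2, mt-Co3 and mt-Atp6 are uncertain, and those of mt-Nd4 and mt-Co1 in part. They cannot be read as the amounts of those mRNAs relative to the other genes.

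**Figure D1:**
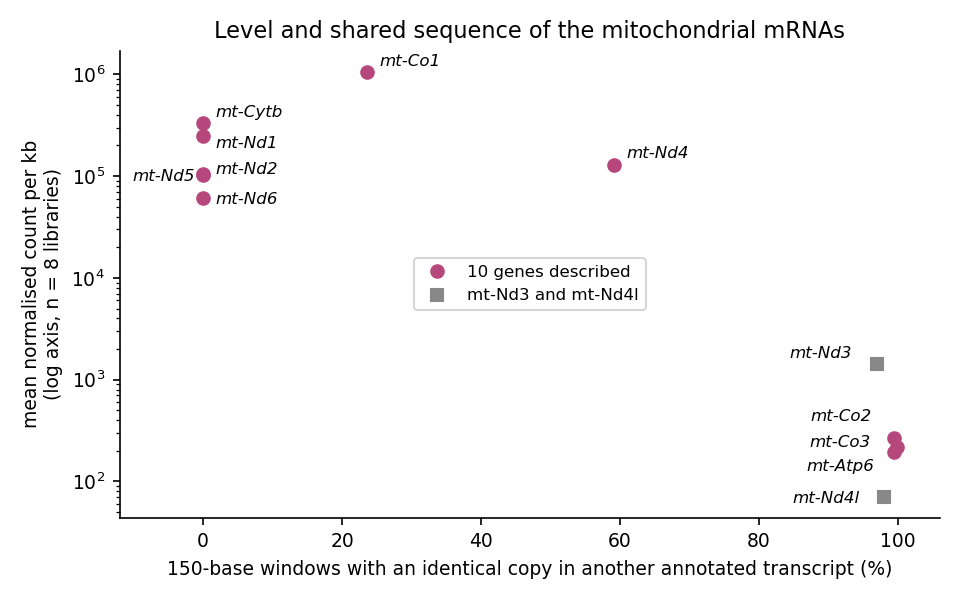
Mean normalised count per kb over the 8 libraries (log axis) against the percent of 150-base windows of each mitochondrial mRNA that have an identical copy in another annotated transcript. The 5 genes with at least 90% of windows shared lie at or below 1430 normalised counts per kb, and the 7 others lie at or above 61518.

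The order of levels was clear for some neighbours and not for others. mt-Co1 was above mt-Cytb, and mt-Cytb above mt-Nd1, in all 8 libraries. mt-Nd4, mt-Nd2 and mt-Nd5 lay within 1.26-fold of each other per kb. Per 1000 windows without an identical copy they stood at 355099, 121731 and 111873 normalised counts. How close mt-Nd4 is to mt-Nd2 and mt-Nd5 is thus uncertain, as the counting of shared reads is not stated. mt-Co2, mt-Co3 and mt-Atp6 differed by less than they varied between libraries.

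Together the 10 genes took a large and uneven part of each library. Their share of the reads counted for the genes of the table was lowest in the ZT12 libraries, at 6.68% in replicate 1 and 7.84% in replicate 2. In the same order it was 12.2% and 19.8% in the ZT0 libraries, 22.2% and 9.80% in those of ZT18, and 19.2% and 19.4% in those of ZT6. The widest 95% Wilson interval of these shares, that of ZT6 replicate 1, ran from 19.17% to 19.21%, so counting error was far smaller than the differences between libraries. Counting error is all that the intervals cover, as PCR copies of a molecule were not told apart.

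The 2 libraries of a time point differed little at ZT6 and ZT12 and widely at ZT0 and ZT18. The higher share was 1.01-fold the lower at ZT6, 1.17-fold at ZT12, 1.62-fold at ZT0 and 2.26-fold at ZT18. As means, the shares were 15.996% ± 5.38 (SD, n = 2) at ZT0, 15.993% ± 8.76 at ZT18, 19.3% ± 0.116 at ZT6 and 7.26% ± 0.819 at ZT12. The means of ZT0 and ZT18 were thus almost equal, while the libraries behind each were far apart. Set against reads outside the mitochondrial genome only, the ratio between the ZT18 libraries was 2.62-fold and that between the ZT0 libraries 1.78-fold. Both ZT12 libraries lay below all other libraries, although ZT18 replicate 2, at 9.80%, was nearer to them than to its own replicate.

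**Figure D2:**
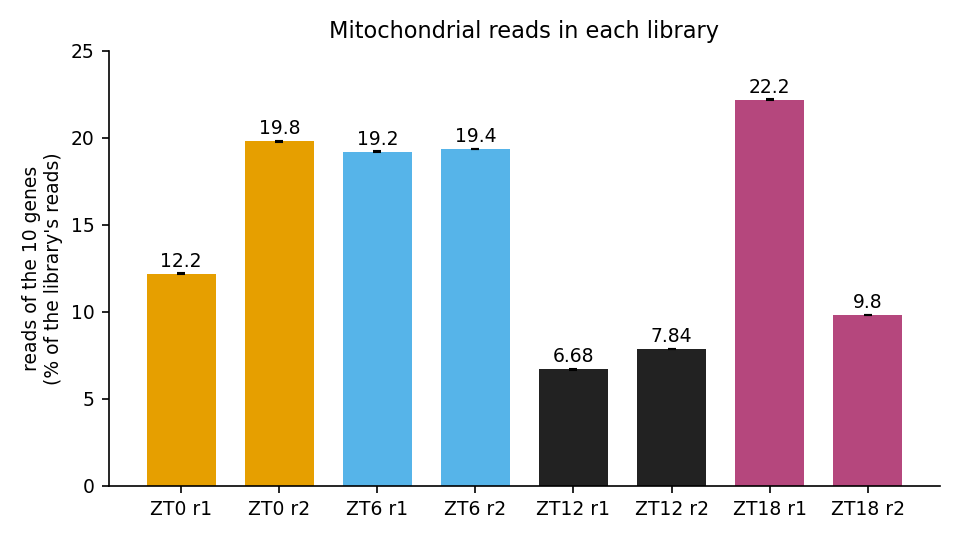
Share of each library's reads that fell on the 10 mitochondrial genes (bars, % of reads; r1 and r2 are replicates 1 and 2; whiskers are 95% Wilson intervals, which cover counting error only). The ZT6 libraries stand level at 19.2% and 19.4%, the ZT12 libraries are lowest at 6.68% and 7.84%, and the ZT18 libraries stand apart at 22.2% and 9.80%.

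Some features of the libraries lay beside these shares. ZT12 replicate 1, with the lowest share, was also the library with the highest smooth muscle and fibroblast marker sums, while ZT12 replicate 2, with a share of 7.84%, had a smooth muscle sum close to the 1025 of ZT18 replicate 2 and a fibroblast sum of 145. The ZT0 libraries differed in markers of other cells as well: replicate 2, with the higher mitochondrial share, had the higher sum of the 6 myeloid markers, at 2567 against 851 normalised counts, of the 4 T cell markers, at 198 against 26.8, and of the 6 fibroblast markers, at 665 against 16.9, and a B and plasma cell sum of 2871 against 98.3. The ZT18 libraries, with the widest gap in share, had myeloid sums of 1073 and 795 and T cell sums of 157 and 261. Elsewhere the myeloid sum was 726 to 1258 and the T cell sum 87.5 to 130. Replicates 1 and 2 of ZT18 had epithelial marker sums of 411111 and 312416 and goblet cell marker sums of 492911 and 318917. Their colonocyte marker sums lay in the opposite order, at 174706 and 245176. At ZT0 the library with the higher share had the lower epithelial sum, 309945 against 339971. Lyz2 and Csf1r of the myeloid list and Cd3g and Cd2 of the T cell list were at 0 in at least 1 library. Gm42418, an RNA on chromosome 17 (39846958 to 39848788) that overlaps a RefSeq entry related to 18S rRNA and was chosen after its values were seen, had 14561 and 8938 normalised counts (ZT0), 8390 and 10522 (ZT6), 2743 and 3805 (ZT12) and 8247 and 3112 (ZT18). It too was low in both ZT12 libraries and in ZT18 replicate 2, but it was highest in ZT0 replicate 1. Lars2, which charges the mitochondrial tRNA for leucine and was also chosen after its values were seen, had 9225 and 1445 (ZT0), 1841 and 2478 (ZT6), 1068 and 2332 (ZT12) and 1951 and 1576 (ZT18). It did not follow the shares, since ZT12 replicate 2 lay above ZT0 replicate 2 and ZT6 replicate 1. The part of tissue makeup or RNA selection in the mitochondrial shares was not tested. In bulk RNA, fewer cells of a type and less RNA per cell cannot be told apart.

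Among the genes of complex I, mt-Nd1 had 183887 and 293161 normalised counts (ZT0, replicates 1 and 2), 336627 and 342931 (ZT6), 97336 and 131732 (ZT12) and 383164 and 139657 (ZT18). The 2 ZT12 libraries were the lowest, ZT18 replicate 2 lay just above them, and ZT18 replicate 1 was the highest of all. mt-Nd2, mt-Nd4 and mt-Nd5, further core subunits of the membrane arm, followed much the same order, with ranges of 40089 to 200854, 67590 to 332366 and 81630 to 324347 normalised counts, each lowest in ZT12 replicate 1 and highest in ZT18 replicate 1. mt-Nd6, transcribed from the opposite strand, had 26917 and 37609 (ZT0), 46181 and 41321 (ZT6), 14300 and 20739 (ZT12) and 50214 and 18145 (ZT18). In mt-Nd6 alone, a ZT12 library, replicate 2, lay above a library of another time point, ZT18 replicate 2. mt-Nd6 overlaps mt-Nd5 by 14 bases on the other strand, and whether counting used strand is not stated, so reads of mt-Nd6 and of the opposite strand cannot be told apart.

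mt-Cytb, the only mitochondrial gene of complex III, had 301491 and 444474 normalised counts (ZT0), 532120 and 510682 (ZT6), 154217 and 188097 (ZT12) and 694292 and 209418 (ZT18). Its ZT18 libraries were 3.32-fold apart, the widest gap of any of the 10 genes at ZT18, with a 95% counting interval of 3.30 to 3.33.

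In complex IV, mt-Co1 had 1269500 and 2285875 normalised counts (ZT0), 2126553 and 2158687 (ZT6), 627500 and 749170 (ZT12) and 2783137 and 1019962 (ZT18). Alone it made up 56.3% to 62.8% of the reads of the 10 genes in every library, so the shares above mostly follow mt-Co1. mt-Co2 had 198 and 287 normalised counts (ZT0), 277 and 162 (ZT6), 54.3 and 49.6 (ZT12) and 239 and 195 (ZT18). Its ZT12 libraries held only 58 and 43 reads and stood well apart from the other 6 libraries. Unlike the abundant genes, mt-Co2 was highest in ZT0 replicate 2, and its ZT18 libraries were only 1.23-fold apart (95% counting interval 1.03 to 1.47). mt-Co3 had 169.8 and 249 (ZT0), 182 and 183 (ZT6), 75.8 and 29.98 (ZT12) and 355 and 112 (ZT18), and spanned 11.8-fold from the lowest library to the highest.

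mt-Atp6, of complex V, had 67.5 and 152 normalised counts (ZT0), 235 and 156 (ZT6), 43.1 and 40.4 (ZT12) and 275 and 95.7 (ZT18). It overlaps mt-Co3 by 1 base and mt-Atp8, which was not analysed here, by 43 bases. Its lowest library held 35 reads, so its values carry more counting error than those of the abundant genes.

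**Figure D3:**
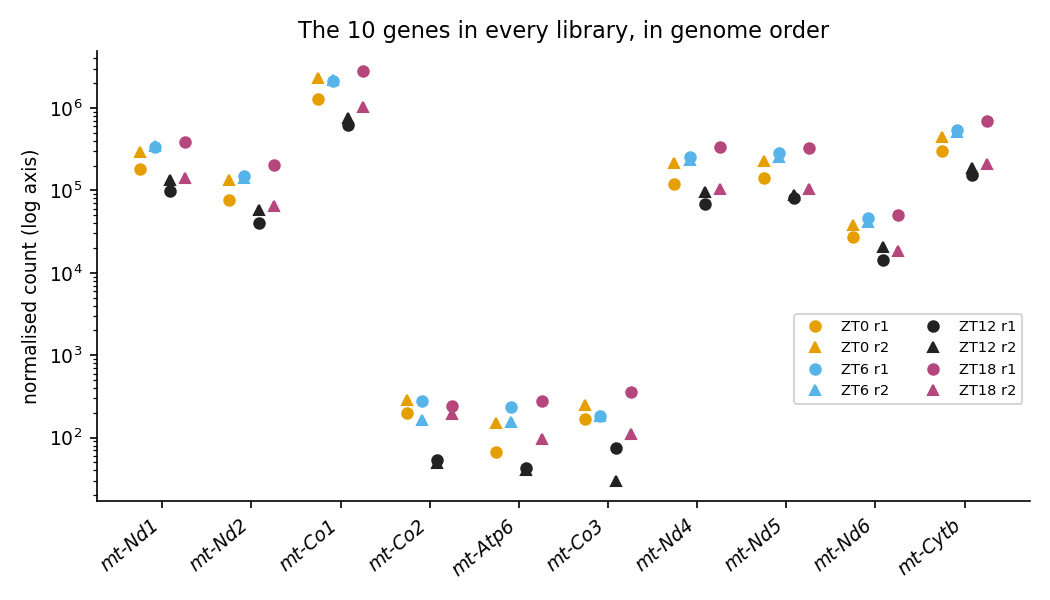
Normalised counts (log axis) of the 10 genes in every library, in the order of the mitochondrial chromosome; circles are replicate 1 and triangles replicate 2, coloured by time point. The 7 abundant genes lie between 14300 and 2783137 normalised counts, mt-Co2, mt-Atp6 and mt-Co3 between 29.98 and 355, and in 9 of the 10 genes the 2 ZT12 libraries are the lowest.

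The replicate gap was shared by nearly all of the genes. At ZT18 the log2 difference of replicate 1 minus replicate 2 was positive for all 10 genes, with a median of 1.58 and a range from 0.30 for mt-Co2 to 1.73 for mt-Cytb. For the 7 abundant genes it ran from 1.45 to 1.73. Over all genes tested, the median of the absolute difference between the same libraries was 0.40. At ZT0 all 10 genes were lower in replicate 1, with a median of -0.67 and a range from -1.16 for mt-Atp6 to -0.48 for mt-Nd6, where the median absolute difference over all genes was 0.32. At ZT6 the 7 abundant genes stayed within -0.03 to 0.16, and mt-Co2 and mt-Atp6 reached 0.77 and 0.59. At ZT12 the 7 were lower in replicate 1 by 0.12 to 0.54, whereas mt-Co3 was higher in replicate 1 by 1.31, from 81 and 26 reads.

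**Figure D4:**
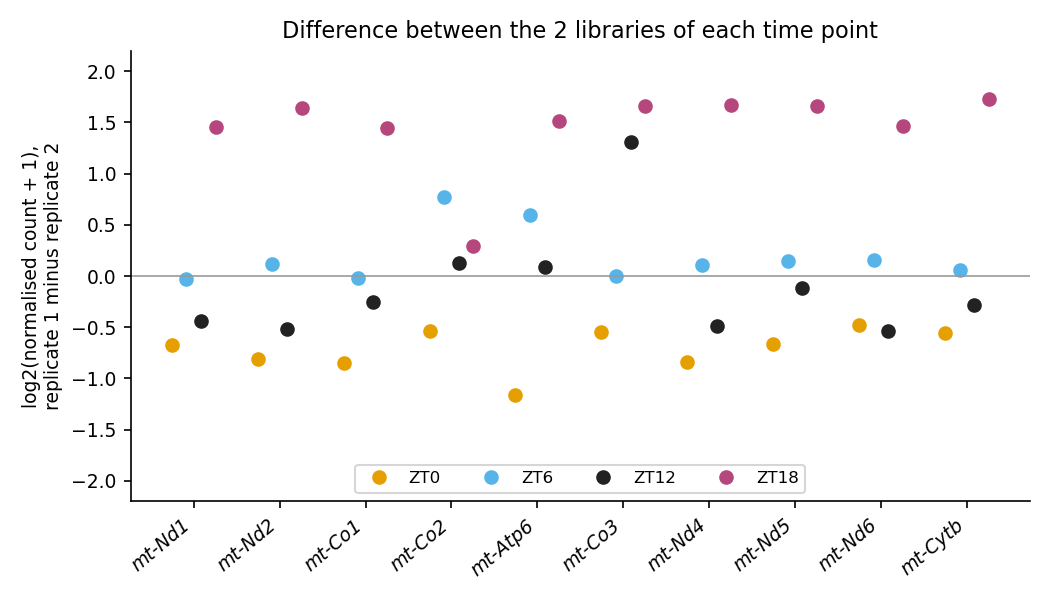
Log2(normalised count + 1) of replicate 1 minus that of replicate 2 for each gene at each time point. The ZT18 points lie at 1.45 to 1.73 for the 7 abundant genes, all ZT0 points lie below 0, and the low genes mt-Co2, mt-Atp6 and mt-Co3 scatter more.

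The genes moved together across libraries. Over the 8 libraries, Pearson's r of the log2 levels was 0.732 to 0.999 for the 45 pairs of genes, with a median of 0.95. It was 0.964 to 0.999 among the 7 abundant genes, 0.84 to 0.88 among mt-Co2, mt-Co3 and mt-Atp6, and 0.73 to 0.95 between the groups. All pairs share the same 8 libraries and the same size factors, so these values are a description of 8 points. Within the mitochondrial reads the proportions were steadier than the total. From the lowest library to the highest, the part of each abundant gene in the reads of the 10 varied by 1.12-fold for mt-Co1 to 1.51-fold for mt-Nd6. The total share varied between 6.68% and 22.2%. mt-Co1 is most of the summed reads, which limits how far its own part can vary. Against the mean log2 of the 7 abundant genes, a choice made after seeing the data, the fold was 1.12 for mt-Cytb, 1.30 for mt-Co1 and 1.37 for mt-Nd6. The part of the low genes in the reads of the 10 varied by 2.08-fold for mt-Atp6, 3.15-fold for mt-Co2 and 3.55-fold for mt-Co3. mt-Nd6 made up 1.56% of these reads in ZT12 replicate 2 and 1.03% in ZT0 replicate 2. mt-Co1 made up 62.8% in ZT0 replicate 2 and 56.3% in ZT12 replicate 2. Since these are parts of 1 sum, a rise in the part of mt-Co1 lowers the summed part of the others. The opposite direction is therefore not a separate result.

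The time points were then compared for each gene in a limma fit over all 13503 genes, with p-values adjusted over all of them by the Benjamini-Hochberg method. Between the start of the active phase, ZT12, and the start of the resting phase, ZT0, each of the 10 genes had both ZT12 libraries below both ZT0 libraries, an arrangement that 20.3% of all genes tested showed. Both ZT12 libraries also lay below the 6 others in 9 of the 10 genes, against 5.70% of all genes tested. Because the 10 genes move together, these counts are not 10 separate observations. The share in every library, ZT12 included, was among the values that chose the genes, so the counts and the tests that follow describe the genes and are no independent evidence.

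The log2 difference of ZT12 minus ZT0 had a median of -1.10 over the 10 genes and of 0.01 over all genes tested. By complex, it was -1.04 (SE 0.60) for mt-Nd1, -1.09 (SE 0.55) for mt-Nd2, -1.01 (SE 0.60) for mt-Nd4, -1.07 (SE 0.59) for mt-Nd5 and -0.89 (SE 0.44) for mt-Nd6. It was -1.10 (SE 0.70) for mt-Cytb, -1.31 (SE 1.16) for mt-Co1 and -1.26 (SE 0.56) for mt-Atp6. The largest differences were those of the low genes mt-Co2, at -2.18 (SE 0.35), and mt-Co3, at -2.08 (SE 0.58).

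No gene of the 10 passed the threshold of an adjusted p of 0.05 in limma for ZT12 against ZT0, where 0.0667% of all genes tested did. The smallest adjusted p was 0.101, for mt-Co2. At an unadjusted p under 0.05 limma counted 3 of the 10, mt-Co2, mt-Co3 and mt-Atp6, against 9.96% of all genes tested. edgeR on the recovered reads called 0, and its few calls over all genes are given in the closing section. It counted 4 under 0.05, those 3 and mt-Co1, against 9.79% of all genes. DESeq2 on the recovered reads counted 8, all but mt-Nd2 and mt-Nd4, against 10.1%. DESeq2 called 2 of the 10, mt-Co1 with an adjusted p of 0.0342 and mt-Co2 with 7.82e-05, where it called 1.24% of the genes for which it gave an adjusted p. For mt-Co1 limma's SE of 1.16 stood above its own SD within time points of 0.60 on the log2 scale, since the fit shares the spread among genes of a similar level. The lower ZT12 values also depended on the ZT0 library: the median difference was -0.72 without ZT0 replicate 2 and -1.46 without ZT0 replicate 1. Without ZT12 replicate 1, the library with the smooth muscle and fibroblast markers, it was -0.98.

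Across all 4 time points the limma F-test called 0 of the 10 genes, against 0.0889% of all genes tested, with 3 at an unadjusted p under 0.05 against 7.03% of all genes. edgeR also called 0, with 3 under an unadjusted p of 0.05 against 7.30% of all genes. The share that edgeR called over all genes is not given here, so nothing is read from its 0. DESeq2 called 4, mt-Nd1, mt-Nd5, mt-Co1 and mt-Co2, against 1.61% of all genes, and had 8 under 0.05, all but mt-Nd2 and mt-Nd4, against 9.22%. A cosine with a period of 24 h was called for 0 of the 10 genes by limma, against 0.118% of all genes, with 2 at an unadjusted p under 0.05 against 9.15%. DESeq2 called 0, where it called 1.62% of the genes for which it gave an adjusted p. A count of 0 was also found by edgeR, with its share over all genes again not given. Each had 1 at an unadjusted p under 0.05, against 8.61% of all genes for edgeR and 10.2% for DESeq2. The fitted amplitudes, from mean to peak on the log2 scale, ran from 0.52 for mt-Nd6 to 1.09 for mt-Co2, and the smallest adjusted p was 0.411, for mt-Co2.

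ZT18 was compared with ZT6 and with ZT0. The 10 genes were chosen for their wide gap between the ZT18 libraries and between the ZT0 libraries, so overlap between time points and a large spread in the fit came with that choice, and what follows is a description from which nothing is read about time of day. In neither comparison did any of the 10 genes have both ZT18 libraries below, or both above, the libraries of the other time. Of all genes tested, 18.8% had both below for ZT6 and 13.9% for ZT0, and the share with both above was not computed. The median log2 difference over the 10 genes was -0.37 for ZT18 minus ZT6, where limma called 0 of the 10 and 0.0444% of all genes (0.0222% as lower), and 0.01 for ZT18 minus ZT0, where it called 0 of the 10 and 0% of all genes. For the 10 genes, 0 were under an unadjusted p of 0.05 by limma, edgeR or DESeq2 in either comparison, where limma had 6.71% of all genes against ZT6 and 5.02% against ZT0. edgeR and DESeq2 called 0 of the 10, where DESeq2 called 0.504% of all genes against ZT6 and 0.415% against ZT0. The share that edgeR called over all genes is not given here, so nothing is read from its 0. Which ZT18 library was kept set the sign: without replicate 1 the median for ZT18 minus ZT6 was -1.20, and without replicate 2 it was 0.40. For ZT18 minus ZT0 the same values were -0.74 and 0.82.

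The nuclear genes of the same complexes did not spread over the libraries to that extent. The median deviation of the 10 mitochondrial genes from their own mean over the libraries on the log2 scale was -1.16 in ZT12 replicate 1, the lowest, and 1.02 in ZT18 replicate 1, the highest. For the nuclear subunits it went from -0.17 to 0.14 in complex I (36 genes), from -0.21 to 0.07 in complex II (4 genes), from -0.14 to 0.19 in complex III (9 genes), from -0.33 to 0.22 in complex IV (12 genes) and from -0.27 to 0.18 in complex V (15 genes). ZT12 replicate 1 was the lowest library for each of these lists. ZT18 replicates 1 and 2, which differed so widely in mitochondrial mRNA, had medians of 0.10 and -0.21 for complex IV and 0.14 and -0.04 for complex V. The 78 genes of the mitochondrial ribosome, which translates the 10 mRNAs, had their lowest median, -0.31, in ZT12 replicate 1 and their highest, 0.15, in ZT18 replicate 1.

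For ZT12 minus ZT0 the median log2 difference was 0.05 for complex I, -0.09 for complex II, -0.08 for complex III, 0.06 for complex IV and 0.07 for complex V, beside 0.01 for all genes tested. limma, edgeR and DESeq2 called 0 of these 76 genes. Of all genes given an adjusted p, limma called 0.0667% and DESeq2 1.24%, so a 0 in lists of this size says little about them. In limma 1 each of complexes I and IV was at an unadjusted p under 0.05, against 9.96% of all genes tested. These were Ndufb6 at 0.59 (SE 0.23) and Cox5a at 0.58 (SE 0.19), both named after their values were seen. Atp5b and Atp5a1, which form the catalytic head of complex V, had log2 differences of 0.14 (SE 0.23) and 0.26 (SE 0.23). Cox4i1 of complex IV had 11634 and 11332 normalised counts at ZT0 and 8584 and 10783 at ZT12, a difference of -0.26 (SE 0.19), and Cox6a1 of the same complex differed by -0.14 (SE 0.24). Ndufv1 of complex I had a difference of -0.29 (SE 0.15). Sdha, the catalytic subunit of complex II, and Sdhd, one of its membrane anchors, had 0.33 (SE 0.21) and -0.10 (SE 0.16), and Cyc1 and Uqcrc1 of complex III had -0.04 (SE 0.16) and 0.11 (SE 0.17). Of the mitochondrial ribosome genes 66 of 78 had a lower mean at ZT12, against 48.6% of all genes tested, with a median difference of -0.24. The ZT12 libraries differed in this, as the median deviation of these genes was -0.31 in replicate 1 and -0.0060 in replicate 2, beside 0.07 in both ZT0 libraries. None of the 78 was called by limma, edgeR or DESeq2, beside the same low shares called of all genes. By each, 4 were at an unadjusted p under 0.05, against 9.96%, 9.79% and 10.1% of all genes tested in that order. In limma these 4 were Mrpl9, Mrpl12, Mrpl28 and Mrpl34. Mrpl12, the most abundant of these, had 3414 and 3676 normalised counts at ZT0 and 1721 and 2726 at ZT12, a log2 difference of -0.71 (SE 0.26; adjusted p in limma 0.449), and Mrpl51 differed by -0.22 (SE 0.24).

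**Figure D5:**
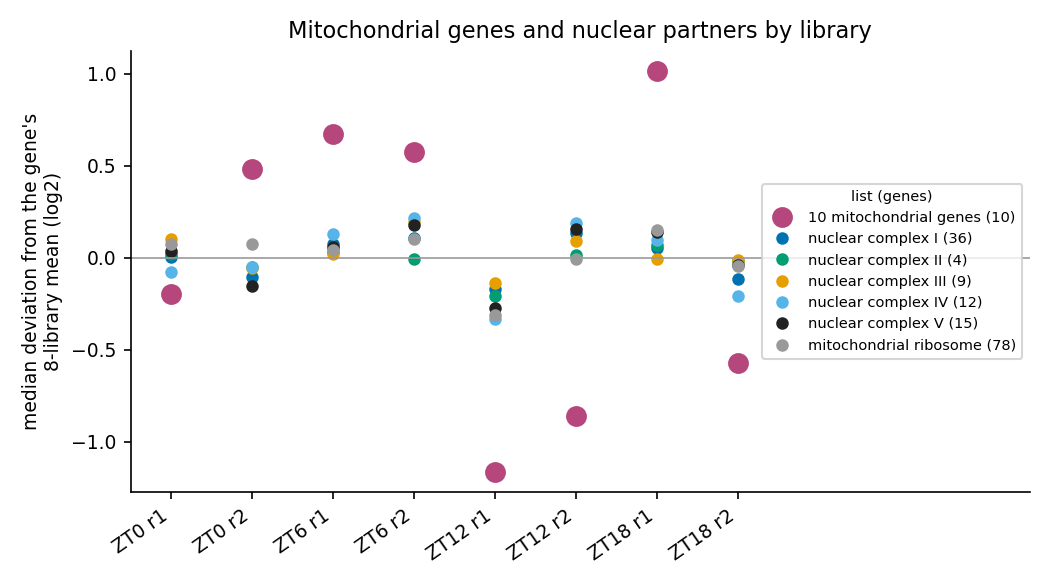
Median deviation of each gene list from its genes' means over the 8 libraries (log2 scale), by library, with the number of genes in parentheses. The 10 mitochondrial genes range from -1.16 to 1.02, and the nuclear subunits of complexes I to V and the mitochondrial ribosome stay between -0.33 and 0.22.

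The nuclear genes that read, copy and process mitochondrial DNA and RNA had list medians near that of all genes, with members on both sides. The list for transcription and replication held 17 tested genes, among them Tfam, which packages mitochondrial DNA and is needed to start transcription, and Polg, the polymerase that copies it. Their log2 differences for ZT12 minus ZT0 ran from -0.82 to 0.34 with a median of -0.09. limma called 0, with 1 at an unadjusted p under 0.05 against 9.96% of all genes tested. That gene, Mgme1, a nuclease that trims ends of mitochondrial DNA and was named after its values were seen, had the lowest value, -0.82 (SE 0.28; adjusted p in limma 0.410). Mgme1 had 255 and 216 normalised counts (ZT0), 169 and 163 (ZT6), 140 and 125 (ZT12) and 244 and 171 (ZT18). Both of its ZT12 libraries were its lowest, as in 5.70% of all genes tested. Tfam had 721 and 816 normalised counts (ZT0), 657 and 608 (ZT6), 647 and 551 (ZT12) and 608 and 762 (ZT18), so its ZT18 libraries lay in the opposite order to the mitochondrial mRNAs. The log2 differences of ZT12 minus ZT0 were -0.36 (SE 0.20) for Tfam and -0.03 (SE 0.23) for Polg. The list for RNA processing and decay (20 genes) ran from -0.51 to 0.59 with a median of -0.07. The regulators of mitochondrial biogenesis (7 genes) ran from -0.42 to 0.54 with a median of 0.11. limma called 0 in either list, with 0 and 1 at an unadjusted p under 0.05 against the same 9.96% of all genes tested. edgeR and DESeq2 called 0 in all of these lists. Of all genes given an adjusted p in this comparison, limma called 0.0667% and DESeq2 1.24%, so a 0 in such short lists says little. The most abundant genes of the processing list, Fastk and Tbrg4, had differences of -0.19 (SE 0.16) and -0.27 (SE 0.16), and Esrra, a nuclear receptor of the biogenesis list, 0.11 (SE 0.16). Ppargc1a, a coactivator that drives mitochondrial biogenesis, had 980 and 678 (ZT0), 667 and 766 (ZT6), 1213 and 1160 (ZT12) and 883 and 930 (ZT18). Its ZT12 libraries, the lowest for mitochondrial mRNA, were its highest, at a log2 difference of 0.54 (SE 0.21) from ZT0, with no call by any of the 3 tools. The share of all genes tested with both ZT12 libraries highest was not computed, so nothing is read from that order.

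Across the 8 libraries, the median Pearson's r between a nuclear gene and the mean log2 level of the 10 genes was 0.26 for complex I, 0.60 for complex II, 0.56 for complex III, 0.46 for complex IV, 0.17 for complex V and 0.55 for the mitochondrial ribosome. It was 0.13 for transcription and replication, 0.07 for RNA processing and decay and -0.33 for the biogenesis regulators. Among all 10014 nuclear genes with a mean of at least 100 the median was -0.02, 86 genes had r above 0.9 and 64 had r below -0.9. The most alike were Zfpl1 (r 0.97), Hbs1l (0.97), Stn1 (0.96), Pmm2 (0.96) and 4933439C10Rik (0.96), and the most opposite were Rsf1 (r -0.99), Kctd10 (-0.98), Rnf145 (-0.96), Irf2bpl (-0.96) and Itgb2l (-0.96). These r values rest on 8 points in shared libraries. Zfpl1, a protein of the Golgi, had 637 and 446 normalised counts at ZT18 and 364 and 408 at ZT12, and Rsf1, a subunit of a chromatin remodelling complex, had 491 and 641 at ZT18 and 755 and 721 at ZT12. Their highest and lowest libraries were 1.75-fold and 1.54-fold apart, against 3.51-fold to 11.8-fold for the mitochondrial genes.

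mt-Nd3 and mt-Nd4l, both complex I genes with near-identical copies on chromosome 1, kept less closely to the pattern. mt-Nd3 had 579 and 434 normalised counts (ZT0), 823 and 702 (ZT6), 114 and 545 (ZT12) and 571 and 214 (ZT18). It shared the gap at ZT18, but its ZT12 replicate 1 held 0.209 of the level of replicate 2 and its ZT0 libraries in the opposite order to the 10 genes. mt-Nd4l held 2 to 48 reads per library, too few to place it.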

How the data were processed

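RNA from mouse colonic crypts was sequenced in 8 libraries, 2 at each of 4 zeitgeber times. According to the methods and the submitters' processing notes, the authors aligned paired reads of 150 bases with STAR to GRCm38 (mm10) and used DESeq2; the labels and the methods name different library kits, and the annotation, strand use and handling of reads that match more than 1 place are not given in the sources used here. The deposited table holds a signal per gene and library, the normalised count, which is the read count over a size factor of the library, as computed by the authors. The authors also deposited log2 fold changes, test scores and p-values, which were not used. Since values of a library rise in steps of 1 read, whole reads could be recovered (100% of values whole within 0.02 reads). Depth was 14722342 to 25159440 reads. A count of 0 allows up to 3 reads, or 2.41 to 3.70 normalised counts. Genes whose mean was under 6.55 were not analysed here.

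All 8 libraries entered 1 limma 3.58.1 fit (R 4.3.3, eBayes with trend) on log2(normalised count + 1), restricted to genes averaging 10 or more, with a mean per time point, and a second fit with a 24 h cosine. Fold changes on this scale understate those of low genes. edgeR 4.0.16 (quasi-likelihood) and DESeq2 1.42.0 on recovered reads were alternatives. The code was tested on simulated data. Mitochondrial mRNAs were searched with BLAST 2.17.0 against the other transcripts of GENCODE M21 (GRCm38), which also gave coordinates and sequences; 14239 of 14247 gene identifiers were found in that annotation. Shares carry 95% Wilson intervals and folds between libraries exact binomial intervals.

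The genes described, the gene lists and the tests were chosen with earlier results of these data known. The rule for named genes took the 10 genes, other mt- genes, the 2 most abundant genes and any called gene of each nuclear list, the 5 nuclear genes most and the 5 least like the 10 genes, and nuclear copies of mitochondrial sequence. A gene that the rule takes is not reported here. Further genes named (the marker genes, Gm42418, Lars2, Mgme1, Ndufb6, Cox5a, Mrpl9, Mrpl28 and Mrpl34) fall outside it, all but the markers chosen after their values were seen. A check whether replicate numbers pair libraries found correlations of -0.29 to 0.22 between same-numbered libraries, so they were not paired.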

Additional observations from a re-analysis of the deposited data

How the results depend on the processing

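The spread between the 2 libraries of a time limited every comparison, and counting error limited only mt-Co2, mt-Co3, mt-Atp6, mt-Nd3 and mt-Nd4l. The median log2 difference of the 10 genes for ZT12 minus ZT0 stayed below 0 under all alternatives run; leaving out 1 library gave -1.46 to -0.72. The same gave -1.20 to 0.40 for ZT18 minus ZT6 and -0.74 to 0.82 for ZT18 minus ZT0, and 0 of the 10 genes called in each comparison. An arm left with 1 library was assumed to vary like the others. DESeq2 called 4 of the 10 genes across time points and 2 for ZT12 against ZT0 (mt-Co1 at -1.37 and mt-Co2 at -2.22), the only alternative to call any; the cause was not tested. Quantile normalisation set the difference of mt-Co1 to 0 by construction, as mt-Co1 is the highest gene of each library.

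Over all genes, limma called 12 across time points, 16 for the cosine, 9 for ZT12 against ZT0, 6 for ZT18 against ZT6 and 0 for ZT18 against ZT0. DESeq2 called 217, 189, 135, 68 and 56, eBayes without trend 2, 1, 1 and 1 in the first 4, and edgeR 5 for ZT12 against ZT0. Leaving out 1 library gave 1 to 16, 6 to 18, 5 to 13, 0 to 9 and 0 to 3. With the replicate number as a block, ZT18 against ZT0 had 1 call; the block changed no call of the 10 genes, and the numbers do not pair the libraries.

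The ratio of the mitochondrial share between replicates 1 and 2 was 0.616 (ZT0), 0.992 (ZT6), 0.852 (ZT12) and 2.26 (ZT18). Per read of nuclear genes without the 10 highest it was 0.554, 0.994, 0.843 and 2.61, and per read outside the mitochondrial genome, a choice made after seeing the data, 0.562, 0.990, 0.842 and 2.62. Leaving out mt-Co2, mt-Co3 and mt-Atp6, also chosen after seeing the data, moved the 3 medians to -1.07, -0.45 and 0.03. The parts of the genes within the mitochondrial reads, set against the mean log2 of the 10 genes in place of their summed reads, varied by 1.19-fold for mt-Co1 to 2.97-fold for mt-Co3. Against the mean log2 of the 7 abundant genes, also chosen after seeing the data, they varied by 1.12-fold for mt-Cytb to 3.81-fold for mt-Co3. mt-Co1 then stood at 1.30-fold.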
